A study of Mus musculus with 6 samples.

Results

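The genes described here are the heat shock proteins, their DnaJ co-chaperones and the heat shock factors Hsf1 and Hsf2, measured in BV2 cells, an immortalized mouse microglial line. Members were chosen by gene symbol: symbols starting with Dnaj, Hspa, Hspb, Hspd, Hspe, Hsph or Hsp90, plus both factors, without the endoplasmic reticulum stress genes Hspa5, Hsp90b1, Dnajb9 and Dnajc3. In the RefSeq table for the mouse assembly GRCm38.p6, 88 genes match, of which 72 are protein-coding and 16 are pseudogenes with 0 probes. A probe matched 70 of the 72 protein-coding genes, out of 32451 genes or unnamed transcripts with a probe, and no probe was matched to Dnajb5 or Hspa1b. The 70 genes had 97 probes, and the brightest probe stood for each gene. For testing, a probe had to be well above background on all 3 arrays of at least 1 group, which 68 members met. Of these, 64 were well above background on all 6 arrays, and the other 4 were Dnajb7, Dnajc6 and Hspa12a (2 of 3 IL-4 arrays) and Hspb2 (1 of 3 PBS arrays).

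Cells received 10 ng/ml recombinant murine IL-4 for 24 hr (3 arrays) or PBS for 24 hr (3 arrays), after plating on wells coated with poly-L-lysine. Nothing in the labels says that the replicates are separate cultures, so the spread behind each p-value may be technical. The total RNA of each sample was labelled with Cy3 and hybridised to 1 single-colour Agilent array. By their scan records, PBS replicate 1 shares a slide with the IL-4 arrays (slide 1 here), and PBS replicates 2 and 3 share another (slide 2). Tested members are therefore given both by the difference between 3 IL-4 and 3 PBS arrays and by the difference between the IL-4 mean and PBS replicate 1 of the same slide. Both comparisons use the same IL-4 arrays and share PBS replicate 1. Levels are log2 signal relative to the array's 75th percentile, so a level of 0 equals that percentile and a difference of 1 is a doubling.

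Heat shock proteins help other proteins fold, keep damaged ones from clumping and hand them on for degradation. Hsp70 proteins bind and release unfolded segments in a cycle driven by ATP. DnaJ proteins start the cycle through their J domain, and exchange factors such as the Hsp110 proteins end it. Hsp90 takes over late folding steps of kinases and steroid receptors, and Hsp60 with Hsp10 forms a folding chamber in mitochondria. When unfolded proteins build up, the transcription factor HSF1 binds heat shock elements, inverted repeats of GAA units, and switches many of these genes on. Microglia are the resident macrophages of the brain, and IL-4 is a cytokine known for moving macrophages into an alternatively activated state.

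Promoters of Hspd1, Hspe1, Dnajb6 and Hsph1 are shown first, since these are the members whose windows held the longer form of the element searched for. The RefSeq promoter windows of GRCm38.p6 (250 bases before to 50 bases after a start site, in transcript orientation) were searched for GAANNTTC or TTCNNGAA, each its own reverse complement, and for the triple form, in which another unit follows at the same spacing so that both pairs overlap. Capitals mark the longest run of such units. The first line is the stretch between the divergent start sites of Hspd1 (Hsp60) and Hspe1 (Hsp10), chr1:55087933-55088147 on the plus strand, the strand of Hspe1. The second is the stretch before a start of Dnajb6, chr5:29735807-29735897 on the plus strand. The third is the stretch before a start of Hsph1 (an Hsp110), chr5:149636337-149636414 on the minus strand.
Hspd1 and Hspe1: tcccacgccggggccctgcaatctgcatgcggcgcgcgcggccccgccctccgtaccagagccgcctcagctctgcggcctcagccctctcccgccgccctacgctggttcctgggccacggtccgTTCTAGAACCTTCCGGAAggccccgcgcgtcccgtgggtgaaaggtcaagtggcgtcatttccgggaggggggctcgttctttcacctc
Dnajb6: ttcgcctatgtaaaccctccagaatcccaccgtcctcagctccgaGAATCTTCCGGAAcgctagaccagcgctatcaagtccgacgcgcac
Hsph1: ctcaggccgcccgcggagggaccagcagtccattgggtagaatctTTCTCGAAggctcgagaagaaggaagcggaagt
The run between Hspd1 and Hspe1 is 18 bases long and begins 89 bases before the Hspe1 start and 144 bases before the Hspd1 start. The Dnajb6 run is 13 bases long and begins 46 bases before the start, and the Hsph1 pair begins 33 bases before it. Hsph1 also has a triple form, which lies after its start and is not printed.

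The search left out 15 members without a window. These were Hsf1, Hspa8, Hspa9, Hspa13, Hspb2, Hsp90aa1, Hsp90ab1, Dnajc2, Dnajc5, Dnajc5b, Dnajc11, Dnajc12, Dnajc18, Dnajc22 and Dnajc30. Across the 57 members with a RefSeq window, 24.3% of 74 windows held a paired motif, against 15.1% of all 32851 windows. The triple form occurred in 8.11% of the members' windows and in 0.603% of all windows, but the members' 6 windows with it cover only 3 distinct stretches, since Hspd1 and Hspe1 share one and other windows overlap. It was found in 4 members, Hspd1, Hspe1, Hsph1 and Dnajb6, and in each of them all 3 IL-4 arrays were above PBS replicate 1, by 0.21, 0.23, 0.59 and 0.23 on average. With quantile normalization these differences were 0.0053, 0.12, 0.58 and 0.21, so that of Hspd1 was near 0. With normexp background correction of the median signal before quantile normalization they were -0.06, 0.09, 0.52 and 0.23, so the sign of Hspd1 turned. The Dnajb6 value is that of its brightest probe: the mean of its 4 probes gave 0.0004. The 14 tested members with a paired motif had a median difference of 0.16 from PBS replicate 1. In 8 of them all 3 IL-4 arrays lay above it, and in 3 (Dnajc10, Dnajc27 and Hspa1a) below it. The 39 tested members with a window and no paired motif had a median of -0.02. In 13 of these all 3 IL-4 arrays lay above PBS replicate 1 and in 10 below it. For all tested genes these shares were 30.5% above and 25.5% below. Over all 6 arrays the medians were 0.03 with the motif and -0.11 without it. A motif match describes letters and shows no binding.

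With IL-4, 5 members fell and none rose at a Benjamini-Hochberg adjusted p under 0.05 in the limma fit on all 6 arrays. The 5 were Dnajc12, Dnajc18, Dnajc10, Hspa13 and Hspb11, which is 7.35% of the 68 tested members. Over all 29752 tested genes, 2.54% were called lower and 0.807% higher, or 3.35% in either direction. At an unadjusted p under 0.05, 11 members were higher and 13 lower, where all genes gave 16.6% and 17.5%. With slide as a block, 0 members were called in either direction, where 0.0202% of all genes were called higher, 0.0101% lower and 0.0303% in either direction. At an unadjusted p under 0.05 that fit had 2 members higher and 7 lower, where all genes gave 4.39% and 5.82%. Without PBS replicate 1, 18 members were called lower and 14 higher, in a fit where slide and group coincide. Without any 1 of the other 5 arrays 0 members were called in either direction. Of all 29752 tested genes, the fits that left out 1 array called between 0 and 12654. In bulk RNA, fewer cells of a kind and less RNA per cell cannot be told apart.

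Dnajc12, a co-chaperone known in people to assist the hydroxylases of phenylalanine, tyrosine and tryptophan, had the largest difference of the members. Its level was -3.44, -3.28 and -3.25 in the IL-4 arrays and -2.43, -2.23 and -2.11 in the PBS arrays. Every IL-4 array lay well under every PBS array. The means were -3.32 ± 0.10 with IL-4 and -2.26 ± 0.16 with PBS (SD, n = 3 each), a difference of -1.07 ± 0.12 (SE; adjusted p = 0.0252, limma), or 2.1-fold lower. Against PBS replicate 1 alone the difference was -0.90 ± 0.13 (adjusted p = 0.126 with slide as a block, limma). With normexp background correction of the median signal these differences were -0.72 and -0.54.

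Dnajc18, a J-domain protein with a membrane segment, was at -3.24, -3.12 and -3.04 in the IL-4 arrays and at -2.42, -2.41 and -2.43 in the PBS arrays. The PBS arrays of both slides gave nearly the same level, and the groups did not overlap. Its difference was -0.72 ± 0.10 (SE; adjusted p = 0.0256, limma), and it was -0.71 against PBS replicate 1 (adjusted p = 0.144 with slide as a block, limma). With the normexp correction these were smaller, at -0.47 and -0.38. Dnajc10 (ERdj5), a disulfide reductase of the endoplasmic reticulum, was at 0.61, 0.62 and 0.62 with IL-4 and at 1.15, 1.23 and 1.08 with PBS. Here too the groups were apart, with PBS replicate 1 between the other PBS arrays. Its difference was -0.54 ± 0.10 (SE; adjusted p = 0.0374, limma) over all 6 arrays and -0.53 within slide 1 (adjusted p = 0.202 with slide as a block, limma). The second Dnajc10 probe gave -0.50 over all 6 arrays and -0.39 within slide 1.

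Hspa13, an Hsp70 relative without the usual substrate-binding domain, was at 0.85, 0.93 and 0.86 with IL-4 and at 1.32, 1.56 and 1.43 with PBS. All 3 IL-4 arrays lay under all 3 PBS arrays, of which the slide 1 array was lowest. The difference was -0.56 ± 0.10 (SE; adjusted p = 0.0401, limma), against -0.44 within slide 1 (adjusted p = 0.257 with slide as a block, limma). A second Hspa13 probe moved less, by -0.19 over all 6 arrays and -0.14 within slide 1. Hspb11, named with the small heat shock proteins but known as the intraflagellar transport protein IFT25, was at 0.49, 0.53 and 0.59 with IL-4 and at 0.91, 1.08 and 1.10 with PBS. The groups did not overlap, and PBS replicate 1 was again nearest to the IL-4 arrays. Its difference was -0.50 ± 0.10 (SE; adjusted p = 0.0477, limma), and -0.38 within slide 1 (adjusted p = 0.312 with slide as a block, limma). All 5 differences stayed negative under the 19 alternatives run.

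**Figure D1:**
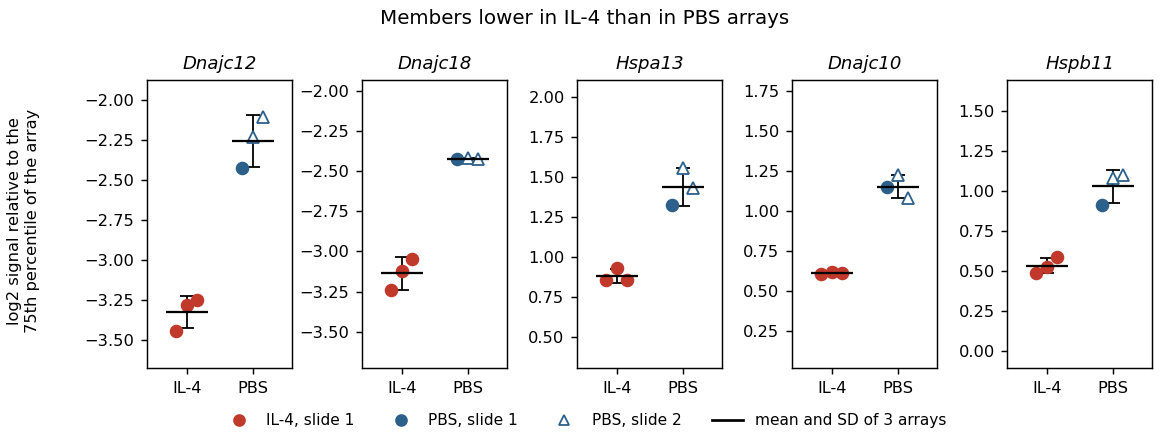
Log2 signal relative to the array's 75th percentile on each array for the 5 members that were lower with IL-4 (filled red circles, slide 1) than with PBS (filled blue circle, slide 1; open triangles, slide 2). Bars give the mean and SD of 3 arrays, each panel spans the same height on the log2 axis, and the IL-4 arrays lie under every PBS array in all 5 panels.

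Across the 68 tested members, the groups were apart with IL-4 higher in 15 (22.1%) and with IL-4 lower in 19 (27.9%), and they overlapped in 34. For all tested genes the shares apart were 18.1% with IL-4 higher and 19.8% with IL-4 lower. All 3 IL-4 arrays lay above PBS replicate 1 in 25 members (36.8%, against 30.5% of all genes) and below it in 21 (30.9%, against 25.5%). The median difference of the members was -0.11 over all 6 arrays and 0.0036 within slide 1, and that of all tested genes was -0.05 and 0.0055. The sign differed between the comparisons in 18 members, of which 13 were lower over all 6 arrays and higher than PBS replicate 1. PBS replicate 1 itself was below the mean of PBS replicates 2 and 3 in 48 of the 68 members, by a median of -0.15, against -0.08 for all genes. Whether slide or culture underlies that gap was not tested.

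**Figure D2:**
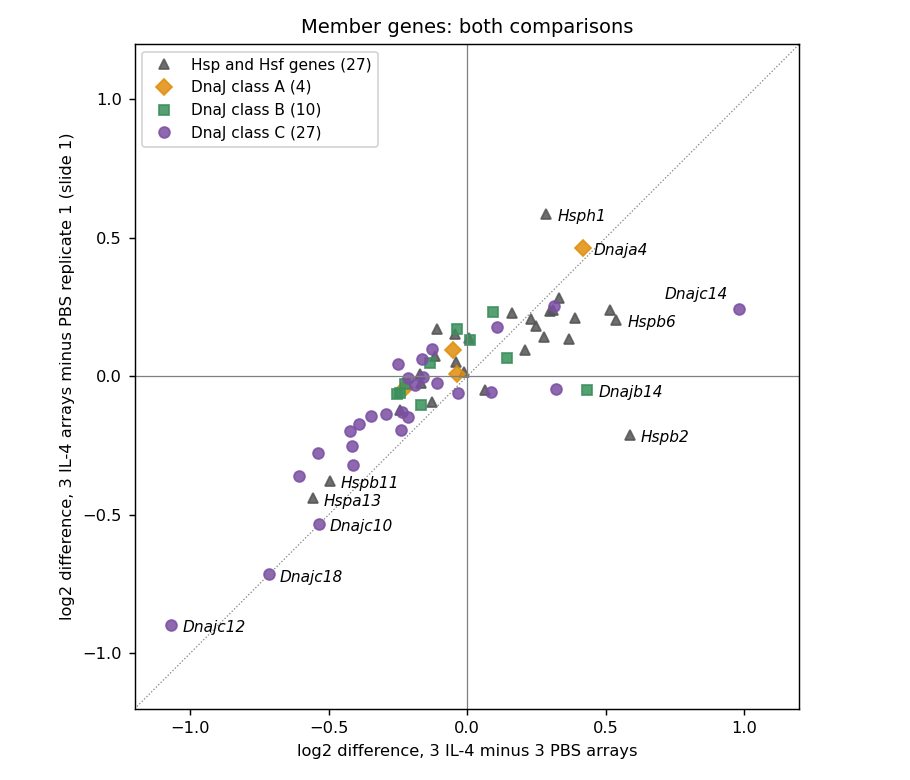
Each point is 1 of the 68 tested members, with the log2 difference of 3 IL-4 minus 3 PBS arrays on the x axis and of 3 IL-4 arrays minus PBS replicate 1 on the y axis. Both axes share the IL-4 arrays and PBS replicate 1, and the dotted line marks equal values. Dnajc12, Dnajc18 and Dnajc10 lie low on both axes, Hsph1 lies highest on the y axis at 0.59, and Hspb2, Dnajc14 and Dnajb14 lie far right of the line.

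Neither heat shock factor passed the test. Hsf1, the main activator of the heat shock response, was at 1.82, 1.80 and 1.81 with IL-4 and at 1.80, 2.11 and 2.03 with PBS. PBS replicate 1 lay among the IL-4 arrays, and the difference was -0.17 ± 0.11 over all 6 arrays (adjusted p = 0.306, limma) and 0.01 within slide 1. Hsf2, a related factor, was at -0.07, -0.28 and -0.21 with IL-4 and at -0.32, -0.57 and -0.77 with PBS. Its groups were apart, by 0.37 ± 0.14 (adjusted p = 0.106, limma), and IL-4 exceeded PBS replicate 1 by 0.14.

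The cytosolic Hsp70 and Hsp90 genes were not called. Their groups were apart with IL-4 higher in 2 of 4 canonical Hsp70 genes and in 2 of 2 Hsp90 genes. They were apart with IL-4 lower in Hspa1a. Of all tested genes, 18.1% were apart with IL-4 higher and 19.8% with IL-4 lower. Hspa8, the constitutive Hsp70, was at 6.57, 6.40 and 6.57 with IL-4 and at 6.23, 6.24 and 6.08 with PBS. IL-4 arrays were above all PBS arrays, by 0.33 ± 0.11 (adjusted p = 0.0801, limma) and by 0.28 over PBS replicate 1. Its other probes gave 0.06 and -0.02 over all 6 arrays but 0.24 and 0.28 within slide 1, so the 3 probes gave closer values within the slide. Hspa1a, the heat-inducible Hsp70, was at -2.65, -2.61 and -2.66 with IL-4 and at -2.55, -2.49 and -2.51 with PBS. Every IL-4 array was the lower one, with a difference of -0.13 ± 0.09 (adjusted p = 0.35, limma) and of -0.09 within slide 1. Whether RNA of the near-identical Hspa1b also bound this probe was not tested. Of the other canonical Hsp70 genes, Hspa2 differed by 0.25 (0.18 within slide 1) and Hspa1l by 0.01 (0.14 within slide 1).

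Hsp90aa1, the stress-responsive cytosolic Hsp90, was at 6.30, 6.18 and 6.29 with IL-4 and at 6.02, 6.01 and 5.82 with PBS. Hsp90ab1, the constitutive one, was at 5.99, 5.84 and 5.94 with IL-4 and at 5.78, 5.64 and 5.52 with PBS. In both genes every IL-4 array exceeded every PBS array. The differences were 0.31 ± 0.11 for Hsp90aa1 (adjusted p = 0.0896, limma) and 0.28 ± 0.11 for Hsp90ab1 (adjusted p = 0.122, limma). Against PBS replicate 1 they were 0.24 and 0.14. With quantile normalization over all 6 arrays the differences were 0.08 for Hsp90aa1, 0.07 for Hsp90ab1 and 0.08 for Hspa8, all still positive but well under those given above. Within slide 1 they were 0.05, 0.03 and 0.08.

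The exchange factors, which release Hsp70 from its client, had positive differences from PBS replicate 1 in all 4 genes. Hsph1 (Hsp110) was at 0.77, 0.51 and 0.61 with IL-4 and at 0.04, 0.49 and 0.50 with PBS. PBS replicate 1 stood far below the rest, while the other PBS arrays were just under the lowest IL-4 array. The difference was 0.29 ± 0.15 over all 6 arrays (adjusted p = 0.208, limma) and 0.59 ± 0.13 within slide 1 (adjusted p = 0.211 with slide as a block, limma), and a second probe gave 0.39 and 0.63. Hspa4 was at 5.69, 5.46 and 5.57 with IL-4 and at 5.34, 5.32 and 5.16 with PBS. Its groups were apart, by 0.30 ± 0.11 (adjusted p = 0.103, limma) and by 0.24 over PBS replicate 1, and with quantile normalization both differences were 0.12. Hspbp1 differed by 0.23 (0.21 within slide 1) and Hspa4l by -0.01 (0.02 within slide 1).

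In mitochondria, Hspd1 (Hsp60) was at 6.74, 6.54 and 6.63 with IL-4 and at 6.43, 6.14 and 6.19 with PBS. The groups were apart, by 0.39 ± 0.12 (adjusted p = 0.0726, limma) and by 0.21 within slide 1, against 0.15 and 0.0053 with quantile normalization. With the normexp correction before quantile normalization these were 0.25 and -0.06. Hspe1 (Hsp10), its partner across the shared promoter stretch printed above, was at 5.62, 5.42 and 5.48 with IL-4 and at 5.28, 5.50 and 5.26 with PBS. PBS replicate 2 reached into the IL-4 range, and the differences were 0.16 ± 0.11 (adjusted p = 0.332, limma) and 0.23 within slide 1. With quantile normalization they were -0.02 and 0.12. The third Hspe1 probe gave 1.00 over all 6 arrays but 0.28 within slide 1, with PBS replicates 2 and 3 at 3.10 and 4.18 against 4.72 in PBS replicate 1. Hspa9 (mortalin), the mitochondrial Hsp70, was at 3.78, 3.57 and 3.65 with IL-4 and at 3.59, 3.82 and 3.94 with PBS. Its groups overlapped, with differences of -0.12 ± 0.12 (adjusted p = 0.516, limma) and 0.07 within slide 1.

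**Figure D3:**
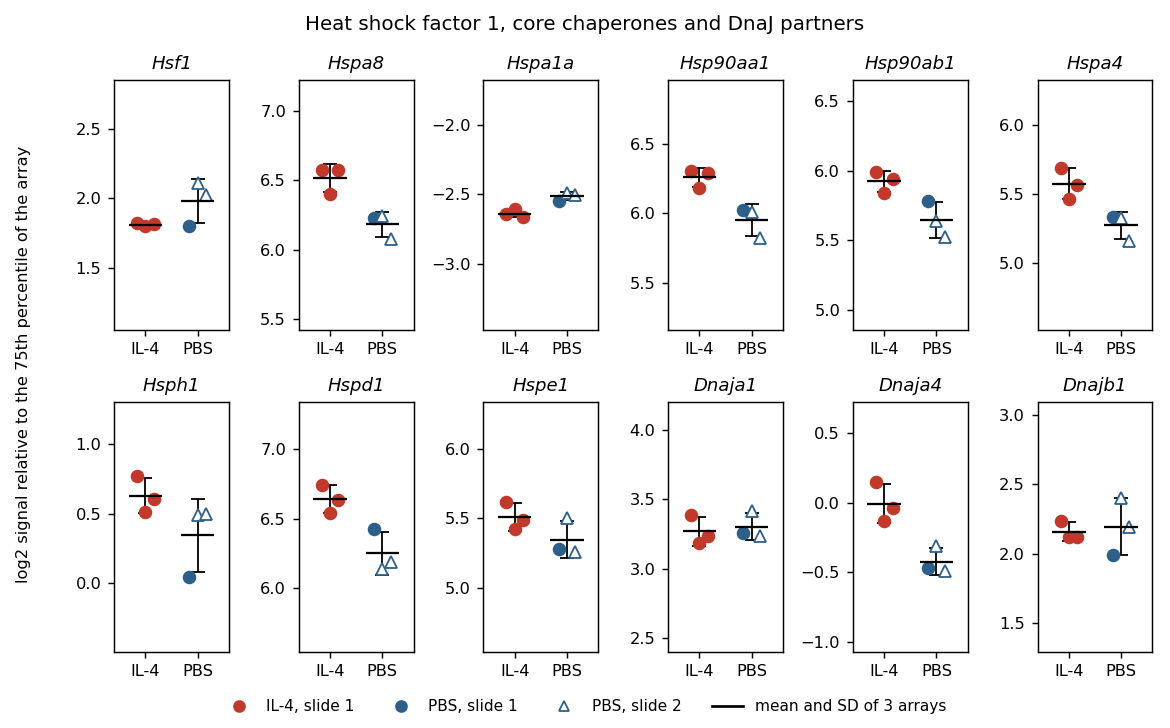
Log2 signal relative to the array's 75th percentile for Hsf1, core chaperones and DnaJ partners, with IL-4 arrays as filled red circles, PBS replicate 1 as a filled blue circle (slide 1) and PBS replicates 2 and 3 as open triangles (slide 2). Bars give the mean and SD of 3 arrays and every panel spans the same height, so a reader can see IL-4 above PBS without overlap in Hspa8, Hsp90aa1, Hsp90ab1, Hspa4, Hsph1, Hspd1 and Dnaja4, none of which passed the test. In Hspa1a the IL-4 arrays lie below PBS without overlap. Of all tested genes, 18.1% are apart with IL-4 higher and 19.8% with IL-4 lower.

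Among the divergent Hsp70 genes, Hspa12b, best known from endothelium, was at -2.67, -2.71 and -2.62 with IL-4 and at -2.91, -3.46 and -3.18 with PBS. The groups were apart, but PBS replicate 1 was the PBS array nearest to IL-4. The difference was 0.51 ± 0.15 (adjusted p = 0.0664, limma) and 0.24 within slide 1, and 0.27 over all 6 arrays with the normexp correction. Hspa12a and Hspa14 differed by -0.17 and -0.04, and by -0.02 and 0.05 within slide 1.

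The small heat shock proteins, which hold unfolded proteins without using ATP, gave 0 calls among 6 tested genes in the limma fit. At an unadjusted p under 0.05, 1 was higher and 0 lower, where all genes gave 16.6% and 17.5%. Hspb6 (Hsp20) was at -0.15, -0.21 and -0.18 with IL-4 and at -0.38, -0.98 and -0.79 with PBS. IL-4 arrays were above all PBS arrays, by 0.54 ± 0.15 (adjusted p = 0.0666, limma), and by 0.21 over PBS replicate 1. Hspb8, a partner of Bag3, was at -4.48, -4.36 and -4.28 with IL-4 and at -4.54, -4.08 and -4.17 with PBS. Its groups overlapped, with differences of -0.11 ± 0.14 (adjusted p = 0.597, limma) and 0.17 within slide 1. Hspb1 (Hsp25, the mouse form of Hsp27) was well above background on 2 of 3 arrays of each group and was not tested. It read -6.25, -5.93 and -5.39 with IL-4 and -5.44, -6.01 and -4.82 with PBS, with overlap. Hspb2, well above background on 1 of 3 PBS arrays, differed by 0.59 over all 6 arrays and by -0.21 within slide 1, since PBS replicate 1 was 1.20 above the mean of the other PBS arrays. The remaining Hspb3, Hspb7 and Hspb9 differed by -0.04, -0.24 and 0.21, and within slide 1 by 0.15, -0.12 and 0.09. Hspbap1, which binds Hspb1, differed by 0.06 and within slide 1 by -0.05. The sign thus turned within the slide in Hspb3 and Hspbap1.

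The class A DnaJ proteins, built like the bacterial DnaJ, gave 0 calls among 4 genes. At an unadjusted p under 0.05 (limma), 1 was higher and 0 lower, where all genes gave 16.6% and 17.5%. Dnaja1, a main partner of Hspa8, was at 3.39, 3.19 and 3.24 with IL-4 and at 3.26, 3.42 and 3.23 with PBS. Its groups overlapped, with a difference of -0.03 ± 0.11 (adjusted p = 0.836, limma) and 0.01 within slide 1. Dnaja4 was at 0.15, -0.13 and -0.04 with IL-4 and at -0.47, -0.31 and -0.49 with PBS. Its groups were apart, by 0.42 ± 0.11 (adjusted p = 0.0635, limma) and by 0.46 within slide 1 (adjusted p = 0.352 with slide as a block, limma). A dimmer Dnaja4 probe gave -0.07 and -0.01. The differences of Dnaja2 and Dnaja3 were -0.05 and -0.22 over all 6 arrays and 0.10 and -0.04 within slide 1, so the sign of Dnaja2 turned.

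Class B, which lacks the zinc-binding part of class A, gave 0 calls among 10 tested genes, also at an unadjusted p under 0.05 (limma). At that unadjusted p all genes gave 16.6% higher and 17.5% lower. Dnajb1 (Hsp40), the classical heat-inducible partner of Hsp70, was at 2.24, 2.12 and 2.12 with IL-4 and at 1.99, 2.40 and 2.20 with PBS. The PBS arrays spanned the IL-4 arrays, with differences of -0.04 ± 0.13 (adjusted p = 0.858, limma) and 0.17 within slide 1. Dnajb4 was at -1.32, -1.40 and -1.32 with IL-4 and at -1.39, -1.12 and -1.12 with PBS. PBS replicate 1 lay among the IL-4 arrays, and the difference was -0.13 ± 0.11 (adjusted p = 0.411, limma), or 0.05 within slide 1. Dnajb6, known for keeping polyglutamine proteins from aggregating, was at 3.21, 3.01 and 3.12 with IL-4 and at 2.88, 3.24 and 2.93 with PBS. The groups overlapped through PBS replicate 2, with differences of 0.09 ± 0.13 (adjusted p = 0.617, limma) and 0.23 within slide 1. Probes of another Dnajb6 transcript gave -0.41 and -0.09 over all 6 arrays and -0.22 and -0.14 within slide 1. Of the rest, Dnajb14 had the widest difference at 0.43, which turned to -0.05 within slide 1. Dnajb2, Dnajb7, Dnajb8, Dnajb11, Dnajb12 and Dnajb13 lay between -0.25 and 0.14, and within slide 1 between -0.10 and 0.13. Dnajb3 was well above background on 0 of 3 IL-4 arrays and 1 of 3 PBS arrays and was not tested.

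Class C holds J-domain proteins with diverse other parts, and most of its genes had a negative difference. Of its 27 tested genes 3 were called lower (11.1%, against 2.54% of all genes) and 0 higher. A negative difference over all 6 arrays was found in 22 of them, against 56.5% of all tested genes, and within slide 1 in 21, against 48.8%. The groups were apart with IL-4 lower in 13 (48.1%, against 19.8% of all genes) and with IL-4 higher in 2 (18.1% of all genes). All 3 IL-4 arrays were below PBS replicate 1 in 14 (51.9%, against 25.5% of all genes) and above it in 4 (30.5% of all genes). The median difference was -0.23 over all 6 arrays and -0.13 within slide 1. With quantile normalization 22 of the 27 were negative over all 6 arrays and 18 within slide 1, and with normexp on the median signal 22 and 16. PBS replicate 1 was below the mean of PBS replicates 2 and 3 in 22 of the 27. The median of that gap was -0.24, against -0.08 for all genes. These shares describe the class, and whether it differs from other genes was not tested.

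Dnajc17, a nuclear J protein with an RNA-recognition motif, was at -4.39, -4.41 and -4.09 with IL-4 and at -3.94, -3.69 and -3.45 with PBS. The groups were apart, yet the difference of -0.61 ± 0.15 missed the threshold (adjusted p = 0.0584, limma) and was -0.36 within slide 1. With the normexp correction it was -0.28 over all 6 arrays and 0.01 within slide 1. Dnajc9, a histone H3-H4 chaperone, differed by -0.41 (adjusted p = 0.0583, limma) and by -0.32 within slide 1. Among mitochondrial class C proteins, Dnajc11, of the inner membrane's contact-site machinery, differed by -0.41 and Dnajc30 by -0.42, and within slide 1 these were -0.25 and -0.20. Dnajc15 and Dnajc19, relatives of the import motor's J proteins, differed by -0.11 and -0.03, and by -0.02 and -0.06 within slide 1. Second probes gave -0.08 for Dnajc11 and -0.48 for Dnajc19 over all 6 arrays, and -0.09 and -0.31 within slide 1, so the order of these genes depended on the probe.

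Dnajc2, which sits on the ribosome, and Dnajc21, which acts in ribosome assembly, differed by -0.21 and -0.29, and by -0.15 and -0.14 within slide 1. The endocytic Dnajc6 (auxilin) and Dnajc13 differed by -0.54 and -0.16, and by -0.28 and -0.0013 within slide 1. Dnajc6 had overlapping groups and was well above background on 2 of 3 IL-4 arrays. Dnajc5, the cysteine string protein of secretory vesicles, had a difference of 0.31 (0.25 within slide 1), with the groups apart and an adjusted p of 0.0852 (limma). Its other probes gave -0.02 and -0.24 over all 6 arrays and 0.13 and -0.00012 within slide 1. Dnajc14, a J protein of the endoplasmic reticulum membrane, was at 4.69, 4.73 and 4.95 with IL-4 and at 4.55, 3.77 and 3.11 with PBS. PBS replicate 1 stood close to IL-4 and 1.11 above the mean of the other PBS arrays. The difference was 0.98 ± 0.31 (adjusted p = 0.0798, limma) over all 6 arrays, 0.24 within slide 1 and -0.17 by the other probe. The other class C genes, Dnajc1, Dnajc4, Dnajc5b, Dnajc5g, Dnajc7, Dnajc8, Dnajc16, Dnajc22, Dnajc24, Dnajc25, Dnajc27 and Dnajc28, lay between -0.39 and 0.32, and within slide 1 between -0.20 and 0.18.

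**Figure D4:**
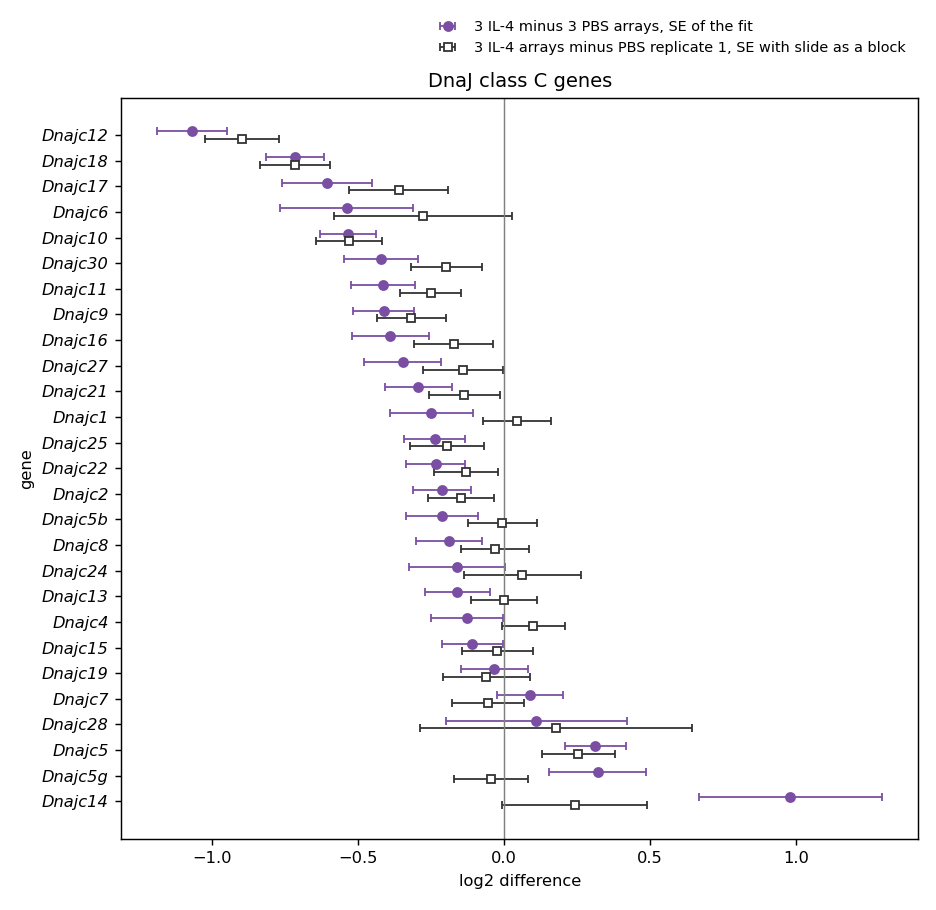
Log2 differences of the 27 class C genes, ordered by the difference over all 6 arrays (filled circles, 3 IL-4 minus 3 PBS arrays, bars the SE of the fit), with the difference from PBS replicate 1 as open squares (bars the SE with slide as a block). Most circles lie left of 0, with 22 negative, and most squares lie nearer to 0 than their circles, while Dnajc18 and Dnajc10 have both at nearly the same place.

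Several probes were tested in 19 members. All probes of a gene had the same sign over all 6 arrays in 12 genes and mixed signs in 7. The probes of a gene lay within 0.25 of each other in 7 genes over all 6 arrays and in 12 within slide 1. Dnajc10 and Hspa13 were the called genes among them, and each had 2 probes of the same sign.

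**Figure D5:**
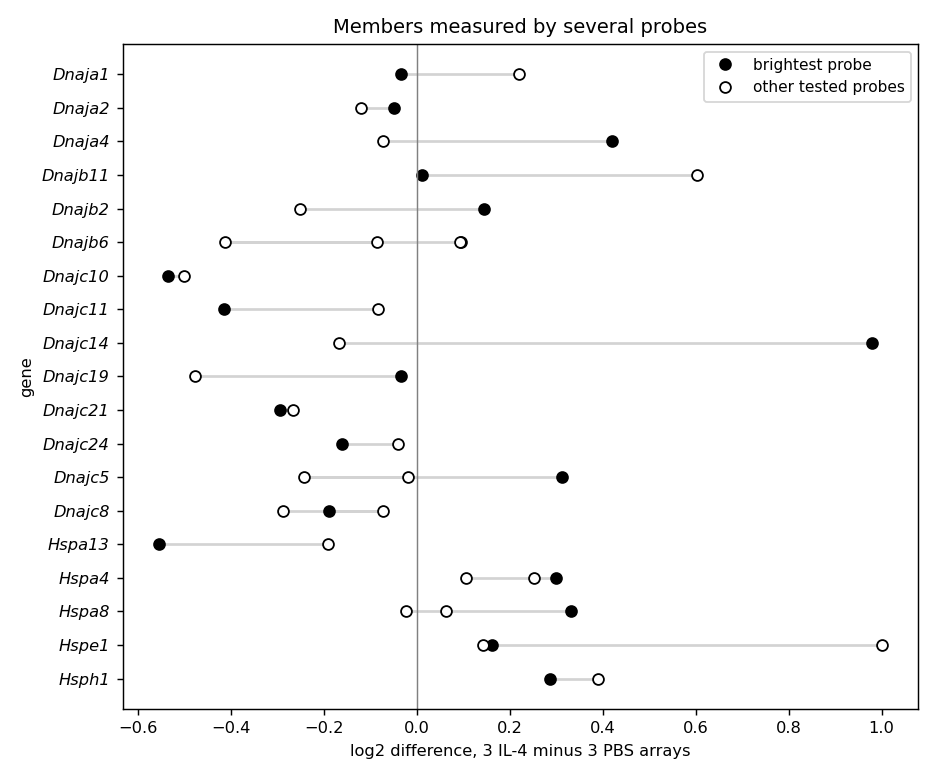
Log2 difference of 3 IL-4 minus 3 PBS arrays for each tested probe of the 19 members with several, the brightest probe filled and the others open, joined by a line per gene. Dnajc10 and Dnajc21 have probes close together, while Dnajc14 and Hspe1 have probes farthest apart.

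Another 56 chaperone genes were fixed as a list (co-chaperones, chaperonin and prefoldin subunits, mitochondrial proteases and further heat shock factors). Of these, 55 were tested and 0 were called in either direction by limma. Where all genes gave 16.6% higher and 17.5% lower at an unadjusted p under 0.05 (limma), 6 of these 55 were higher and 5 lower. In 28 of them (50.9%, against 30.5% of all genes) all 3 IL-4 arrays were above PBS replicate 1, and in 9 they were below it (25.5% of all genes). The groups were apart with IL-4 higher in 11 (20%, against 18.1% of all genes) and with IL-4 lower in 7 (12.7%, against 19.8%), and the median difference was -0.03 over all 6 arrays and 0.08 within slide 1. The largest differences were those of Serpinh1, the collagen chaperone Hsp47 (0.61), Pfdn5 of prefoldin (-0.58), Tomm34, an Hsp70 and Hsp90 co-chaperone (0.55), the small heat shock protein Cryab (0.50) and the Hsp90 co-chaperone Chordc1 (0.48, fitted on 5 arrays). Within slide 1 these were 0.19, -0.25, 0.21, 0.10 and 0.07, all smaller in size. The 8 subunits of the chaperonin TRiC, which folds actin and tubulin, were all positive against PBS replicate 1, between 0.09 and 0.37, and 7 had all 3 IL-4 arrays above it. Over all 6 arrays 5 of these 8 were positive, and 4 with quantile normalization. Of the 6 prefoldin subunits, which deliver clients to TRiC, 1 was positive against PBS replicate 1.

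Of the microglia or macrophage markers, 7 had a matched probe and all 7 were well above background on all 6 arrays. Aif1, Tyrobp and Lyz2 were called lower over all 6 arrays, with differences of -0.72, -0.95 and -0.81, and 0 were called higher. Within slide 1 these differences were -0.49, -0.54 and -0.55. Of 14 markers of neurons, astrocytes, oligodendrocytes, fibroblasts and T cells, 13 were tested and 0 were called. Slc1a3 was not well above background on any array. Aqp4 had the highest level of the 14, at 3.17, 3.69 and 4.11 with IL-4 and at 3.83 and 3.33 on PBS replicates 1 and 2. It had no value on PBS replicate 3 and is therefore missing from the sums that follow, which would be much larger with it. The summed level of the 13 with a value on every array was 5.27 to 5.81 times the 75th percentile with IL-4. With PBS it was 2.99 to 4.83 times, of which PBS replicate 1 was the highest. Mog and Cd3e had the largest positive differences of these 13, at 0.82 and 0.91 over all 6 arrays and 0.19 and 0.41 within slide 1. Leaving them out was not part of the fixed lists, and it brings the sums of both groups closer. Without Mog and Cd3e the sum of the other 11 was 1.04 to 1.17 with IL-4 and 1.06 to 1.19 with PBS. Their part in the results was not tested. Between 87.9% and 97.0% of probes were well above background on IL-4 arrays and between 88.9% and 98.0% on PBS arrays, and the number of arrays limits the precision.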

How the data were processed

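Gene expression was measured in BV2 cells on 6 single-colour Agilent arrays, 3 with IL-4 and 3 with PBS. The deposited scanner files hold spot intensity on a linear scale from Agilent Feature Extraction 11.0.1.1, background subtracted, per the file headers. A table of log2 values that the authors deposited has an identical median, 6.92, in each column. How it was normalized is not stated by the labels or headers used here, and it served only as an alternative. The design text calls the control untreated and the sample labels say PBS, which was used; a description that mentions human blood goes against every other label.

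Control and outlier-flagged spots were left out, copies of a probe were averaged as log2 values, and each array's 75th percentile was subtracted. Accessions were matched to RefSeq (GRCm38.p6), which named 27234 of 39429 probes (69.1%). Groups were compared over all 29752 tested genes with limma 3.58.1 (lmFit, then eBayes; R 4.3.3) and Benjamini-Hochberg adjustment at 0.05, first without a block and then blocking on slide, which makes the IL-4 term the difference from PBS replicate 1. Slides were read from shared scan records in the file headers. The fit was tested on simulated data that had the spread of the IL-4 arrays in both groups and no slide difference. That check cannot show how the fit behaves under a gap between slides. Values on each array are given for called members, for a list of core chaperones, and for the 8 largest differences with groups apart in each comparison; of other chaperone genes the 5 largest are named. Members, lists, motifs and tests were chosen with earlier results of these data known, and the split of the chaperone list by complex was made after its values were seen. Deviations of same-numbered replicates from their group means correlated at 0.08, -0.02 and 0.30. With 3 arrays per group, and the PBS arrays split between slides, these values cannot decide whether the numbers pair the samples. Alternatives were another scaling, background correction, probe filter, probe choice, the authors' table, slide or replicate blocks and leaving out arrays.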

Additional observations from a re-analysis of the deposited data

How the results depend on the processing

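Calls depended on the setting, while the direction of the 5 called members did not. The count of all genes called in either direction moved too. It was 997 as reported, 2637 with quantile normalization, 4058 with normexp and the 75th percentile, and 3096 with normexp and quantile normalization. Over the 19 alternatives it ran from 0 to 12654. The count of members called lower, 5 as reported, was 8 with quantile normalization, 8 in the authors' table, 8 with only probes that every array measured well above background, 2 with the mean of a gene's probes (Dnajc12 and Dnajc18), and 0 with no probe filter, with slide as a block, on slide 1 only and without the arrays in position 1 (added after seeing the data). The count called higher, 0 as reported, was 3 with normexp on the median signal and the 75th percentile (the files hold no mean signal), 3 with that stricter filter and, in the authors' table, 1 (Dnaja4). Leaving out 1 array gave 0 to 18 lower and 0 to 14 higher. These were 18 and 14 without PBS replicate 1, where slide and group coincide, and 0 and 0 without each of the other 5. Of all 29752 tested genes, these fits called between 0 and 12654. Of the other chaperone genes, 0 were called as reported; normexp with the 75th percentile called 1 higher and 2 lower, normexp with quantile 2 lower, quantile 1 lower, the authors' values 1 higher, the all-array filter 1 higher and 1 lower, and leaving out 1 array 0 to 6 higher and 0 to 10 lower.

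With slide as a block, members called lower, 0 as reported, were 2 with quantile normalization, 2 in the authors' table, 3 with either normexp setting and 4 without the arrays in position 1. Members called higher, 0 as reported, were 1 (Hsph1) with either normexp setting and without the arrays in position 1. Leaving out 1 array gave 0 in both directions, and without PBS replicate 1 this fit could not be made. How many of all genes were called with slide as a block under these alternatives was not counted. The median difference of all tested genes, -0.05 as reported, was -0.0069 with the percentile taken over probes that passed the stricter filter, 0.0055 with slide as a block and 0.0055 on slide 1 only. The causes were not tested.

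Whether the replicate numbers pair the samples could not be decided from the arrays. The replicate block gave 7 members called lower and 0 higher, and 1 other chaperone gene in each direction. Together with slide as a block it called 4 members lower and 2 higher. How many of all genes were called with both blocks was not counted, and the count for the replicate block alone is not given here. These member counts can therefore not be set against a share of all genes. IL-4 replicates 1 and 3 correlated best with the PBS replicate of their own number, and IL-4 replicate 2 did not.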
